A study of Mus musculus with 18 samples.

Results

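The left ventricle of mice labelled MLP KO was compared at 10 weeks and at 6 weeks of age. The comparison used 6 of the 18 libraries of the series: the 3 labelled MLP KO at 10 weeks and the 3 labelled MLP KO at 6 weeks, chosen by genotype and age alone. Each library was total RNA from the mid wall of the left ventricle of male mice on the 129SVE background. Both ages carry the same knockout, and no treatment is given in the labels. WT libraries of the same strain and sex at 10 weeks and 6 weeks, 3 of each, served as the age reference, and the 3-week groups give earlier levels where stated. Whether WT at 10 weeks differs from WT at 6 weeks by more than age was not tested. The labels do not say how the knockout allele was made, nor that the replicates of a group are separate animals, so p-values measure the spread between these libraries, which may be partly technical. Gene counts as deposited were scaled to CPM, counts per 1e6 of the library total after edgeR's TMM correction. A gene was called changed at a Benjamini-Hochberg adjusted p under 0.05 in edgeR's quasi-likelihood test over 15778 genes.

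MLP, the muscle LIM protein encoded by Csrp3, is a cardiomyocyte protein of the Z-disc, the structure that anchors thin filaments at the ends of each sarcomere. Z-disc proteins carry force and take part in the response of muscle cells to stretch. Mice without MLP are a long-used model of dilated cardiomyopathy, in which the ventricle enlarges and its walls thin. The stretched or failing ventricle is known to re-express foetal genes such as those for natriuretic peptides and beta myosin heavy chain, and to change its matrix, ion channels and fuel use.

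Totals ran from 15873296 to 19533085 counts in KO at 10 weeks and from 16778954 to 19123985 in KO at 6 weeks. Of the 6 libraries, 2 stood apart by transcripts of other tissues. KO 10 weeks replicate 1 held 637 CPM of Myl7 and 506 CPM of Sln, and KO 6 weeks replicate 3 held 175 CPM of Myl7 and 190 CPM of Sln. The other 4 KO libraries had at most 3.44 CPM of Myl7, the atrial regulatory light chain, and at most 3.33 CPM of Sln, the sarcolipin of atrial muscle. The same pair was rich in fat transcripts: Adipoq, the adipocyte hormone adiponectin, was at 13.5 CPM in KO 10 weeks replicate 1 and 11.1 CPM in KO 6 weeks replicate 3, against at most 0.175 CPM in the others. KO 6 weeks replicate 3 also held 118 CPM of Xist, the RNA of the inactive X chromosome, while the other KO libraries of both ages had at most 1.05 CPM, although all are labelled male. Its Y-linked Ddx3y was at 23.5 CPM, inside the range of 22.3 to 66.4 CPM of the other 5. Values from a fit without these 2 libraries are given where they are called the atrial-rich pair. KO 10 weeks replicate 3 lay nearest to the 6-week libraries, and it was the lowest of its group in 622 of the 1028 genes called higher and the highest in 596 of the 968 called lower. Cardiomyocyte identity held in all 6: the summed level of 10 cardiomyocyte markers was 117193 to 133082 CPM in KO at 10 weeks and 99075 to 110976 CPM in KO at 6 weeks, with no marker at 0. In tissue RNA, fewer cells of a type and less RNA per cell cannot be told apart.

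**Figure D1:**
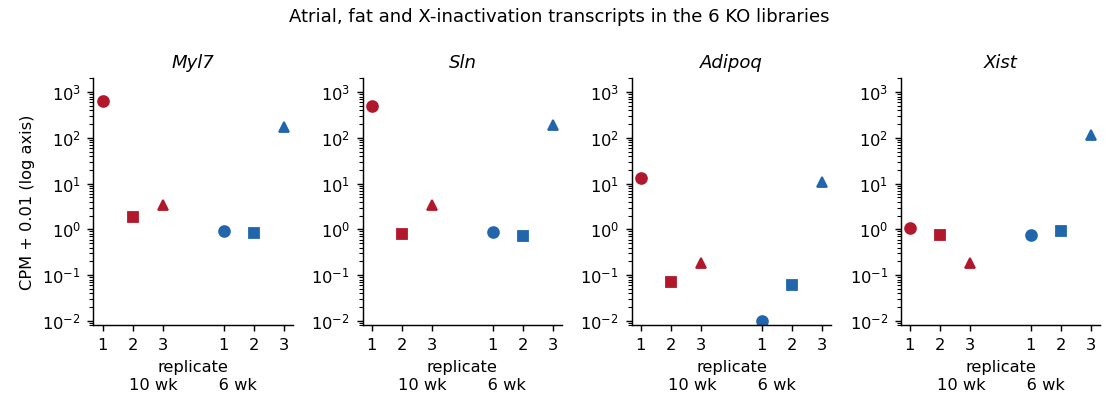
CPM plus 0.01 on a log axis of Myl7 and Sln (atrial muscle), Adipoq (fat) and Xist in each KO library, replicates 1 to 3 at 10 weeks in red on the left and at 6 weeks in blue on the right. KO 10 weeks replicate 1 and KO 6 weeks replicate 3 stand apart in the first 3 genes, and KO 6 weeks replicate 3 alone in Xist, at 118 CPM.

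Csrp3 itself was at 2777, 3416 and 1501 CPM in KO at 10 weeks and at 2483, 1822 and 1792 CPM in KO at 6 weeks. The groups overlapped, and the fold change did not pass (log2 0.34, SE 0.29, adjusted p = 0.50). In WT it was at 1001 to 1124 CPM at 10 weeks and 1230 to 1486 CPM at 6 weeks, so the transcript was not lower in libraries labelled KO. The sources used here do not say which part of the gene is removed, and a count over the whole gene then checks nothing about the allele.

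Between 6 and 10 weeks 1996 genes changed in KO, 1028 upward and 968 downward, which is 12.7% of the genes tested, with 6.52% higher and 6.14% lower. More than 2-fold changes numbered 575 of these. The ranges of both ages were apart in 29% of the genes tested, and in 1882 of the 1996 called. In WT 3.64% of all genes were higher and 5.12% lower. The difference between the KO and WT changes passed for 3.12% upward and 2.63% downward. Counts of list members below stand beside these shares over all genes. The largest increases were in genes of the heat shock response, of stretched muscle and of immediate early transcription. The largest decreases were spread over matrix, signalling and chromatin genes at low levels. A fixed rule chose most of the genes named below. It took the 12 largest changes each way among called genes whose 10-week and 6-week values did not overlap. Lack of overlap is thus no added support for those genes. The rule also took up to 3 called members of each list and the 8 largest differences from WT each way. Acta1, Ankrd1, Bag3, Dbp, Fkbp5, Gja1, Hspb1, Klf9, Mt1, Mt2, Myh6, Myh7, Mypn, Nppa, Nppb, Postn, Timp4, Tsc22d3 and Zbtb16 were chosen after their values were seen. Eng and Smad7 complete the risen genes of the TGF-beta and activin list. Without the 2 libraries rich in atrial and fat transcripts 1135 genes were called, 595 higher and 540 lower. Leaving out KO 6 weeks replicate 2, KO 10 weeks replicate 2 or KO 6 weeks replicate 3 gave 983, 1084 and 1307 calls, and the fit of the 6 libraries alone gave 874.

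**Figure D2:**
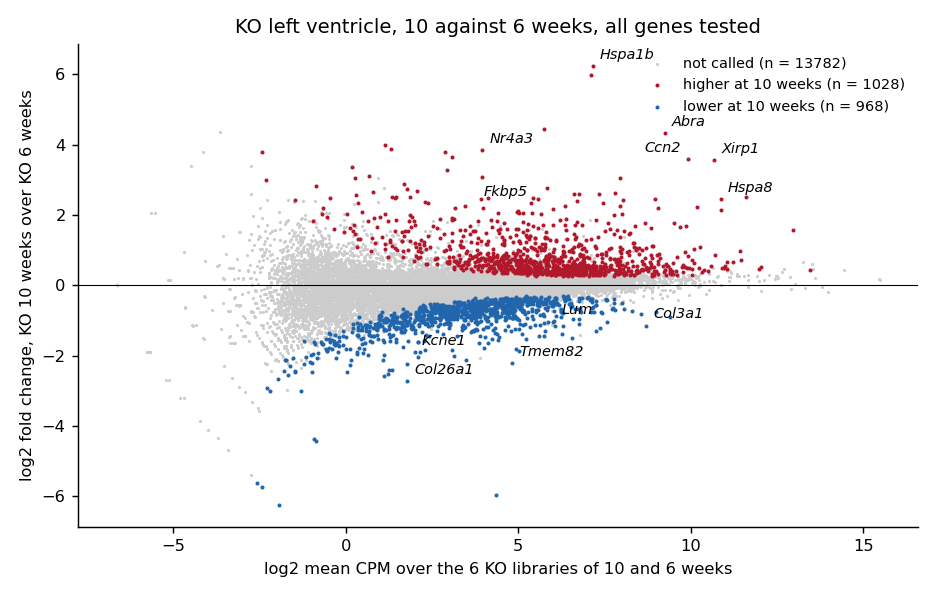
Log2 fold change of KO 10 weeks over KO 6 weeks against log2 mean CPM, 1 point per gene tested. Red points are the 1028 genes called higher at 10 weeks and blue points the 968 called lower; Hspa1b has the highest value among the labelled genes and Col26a1 the lowest.

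Hspa1b and Hspa1a, genes of the heat shock response, had the largest rises among the genes named. Of 31 tested genes of heat shock and protein breakdown, 16 rose and 1 fell, with a median log2 change of 0.45 against -0.02 over all genes. Among the cytosolic chaperones, which refold damaged proteins, 8 of 9 rose. Hspa1b, an inducible HSP70, was at 417, 401 and 27.7 CPM in KO at 10 weeks, against 4.44, 3.42 and 3.38 CPM in KO at 6 weeks (log2 6.24, SE 1.19, adjusted p = 0.0055). All 10-week values lay above all 6-week values, which the rule for the largest changes required. Replicate 3 at 10 weeks was more than 10 times below the others of its group. Hspa1a, its neighbour on chromosome 17, was at 419, 358 and 38.1 CPM in KO at 10 weeks and 3.86, 4.27 and 4.71 CPM in KO at 6 weeks (log2 5.99, SE 1.26, adjusted p = 0.0095). These are near-identical copies, so the split of reads between them is uncertain. At 3 weeks the KO libraries held 3.19, 3.31 and 37.2 CPM of Hspa1b and 3.46, 3.36 and 61.5 CPM of Hspa1a. Both high values were in KO 3 weeks replicate 3, which was itself rich in atrial transcripts. It held 72.3 CPM of Myl7 and 56.6 CPM of Sln, against at most 1.18 and 0.504 CPM in the other KO libraries of that age. The 3-week group was not tested here. The constitutive chaperone Hspa8 was at 3706, 3872 and 1895 CPM in KO at 10 weeks and 547, 501 and 691 CPM in KO at 6 weeks (log2 2.44, SE 0.42, adjusted p = 0.0027). Bag3, a co-chaperone that hands damaged sarcomere proteins to autophagy, was at 432 to 514 CPM in KO at 10 weeks and 210 to 228 CPM in KO at 6 weeks (log2 1.06, SE 0.13, adjusted p = 3.4e-05). It rose in all 3 replicates alike. Hspb1, a small heat shock protein, was at 1686, 1941 and 614 CPM in KO at 10 weeks and 590, 326 and 403 CPM in KO at 6 weeks (log2 1.68, SE 0.39, adjusted p = 0.014).

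The promoters of these genes can be read beside the values. The heat shock factor binds inverted repeats of a short unit, here searched as GAANNTTC or TTCNNGAA, both of which read the same on either strand. The 250 bases before the start of 3 of the risen genes are shown 5′ to 3′ from RefSeq (GRCm38.p6), with each match in capitals: Hspa1b at chr17:34959239-34959488 and Hspa1a at chr17:34972157-34972406, both on the minus strand, and Hspb1 at chr5:135887669-135887918 on the plus strand.
Hspa1b: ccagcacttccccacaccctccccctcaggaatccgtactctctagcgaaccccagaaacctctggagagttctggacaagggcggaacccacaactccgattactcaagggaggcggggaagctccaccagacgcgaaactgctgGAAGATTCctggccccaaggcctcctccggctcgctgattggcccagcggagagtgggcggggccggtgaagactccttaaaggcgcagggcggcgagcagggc
Hspa1a: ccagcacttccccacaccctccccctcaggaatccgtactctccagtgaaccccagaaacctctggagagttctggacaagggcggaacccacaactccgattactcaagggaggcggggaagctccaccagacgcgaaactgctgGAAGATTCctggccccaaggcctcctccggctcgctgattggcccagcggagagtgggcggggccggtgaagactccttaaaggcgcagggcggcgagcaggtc
Hspb1: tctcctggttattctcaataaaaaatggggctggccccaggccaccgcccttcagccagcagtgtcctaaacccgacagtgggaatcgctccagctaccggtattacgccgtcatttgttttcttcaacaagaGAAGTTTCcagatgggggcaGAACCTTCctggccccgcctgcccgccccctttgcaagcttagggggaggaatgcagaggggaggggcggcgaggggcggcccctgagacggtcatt
The windows of Hspa1b and Hspa1a share 247 of 250 bases and hold GAAGATTC at the same place, 104 to 97 bases before the start. Hspb1 holds GAAGTTTC and GAACCTTC. Of the list, 22 of 31 genes had a window in the RefSeq table, and 8 of these held a match; of the 12 risen genes with a window 6 did, against 12.2% of the 11381 tested genes with a window. Hspa1b and Hspa1a, with nearly the same window, are both among the 6. The list was chosen as heat shock genes, so these shares do not test a link between the matches and the rise. A match is a string of letters and not a measured binding site.

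In the same list Fbxo32, the muscle ubiquitin ligase atrogin-1, was the 1 gene that fell, to 66.5, 63.5 and 168 CPM in KO at 10 weeks, against 256, 219 and 215 CPM in KO at 6 weeks (log2 -1.21, SE 0.28, adjusted p = 0.012). In WT at 10 against 6 weeks 1 of the 31 genes rose and 2 fell. The fit of the 6 WT libraries alone called 8 and 4, and the 2 were 0 without WT 6 weeks replicate 1 or WT 10 weeks replicate 2. The change of Bag3 differed between KO and WT (log2 difference 0.72, SE 0.18, adjusted p = 0.024). This call was lost without WT 6 weeks replicate 3, WT 10 weeks replicate 1, KO 6 weeks replicate 1 or KO 10 weeks replicate 2 (0.0561 to 0.0738). The difference for Hspa1b, which was at 6.41 to 21.3 CPM in WT at 10 weeks and 2.03 to 4.20 CPM in WT at 6 weeks, did not pass (4.30, SE 1.56, adjusted p = 0.13). The count of 16 fell to 9 without KO 6 weeks replicate 2, 9 without KO 10 weeks replicate 2, 10 without KO 6 weeks replicate 3, 9 without the atrial-rich pair and 7 in the fit of 6 libraries. Without that pair Hspa1a was at an adjusted p of 0.066, and Hspb1 lost its call without KO 6 weeks replicate 2 (0.068), KO 6 weeks replicate 3 (0.054) or KO 10 weeks replicate 2 (0.057).

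**Figure D3:**
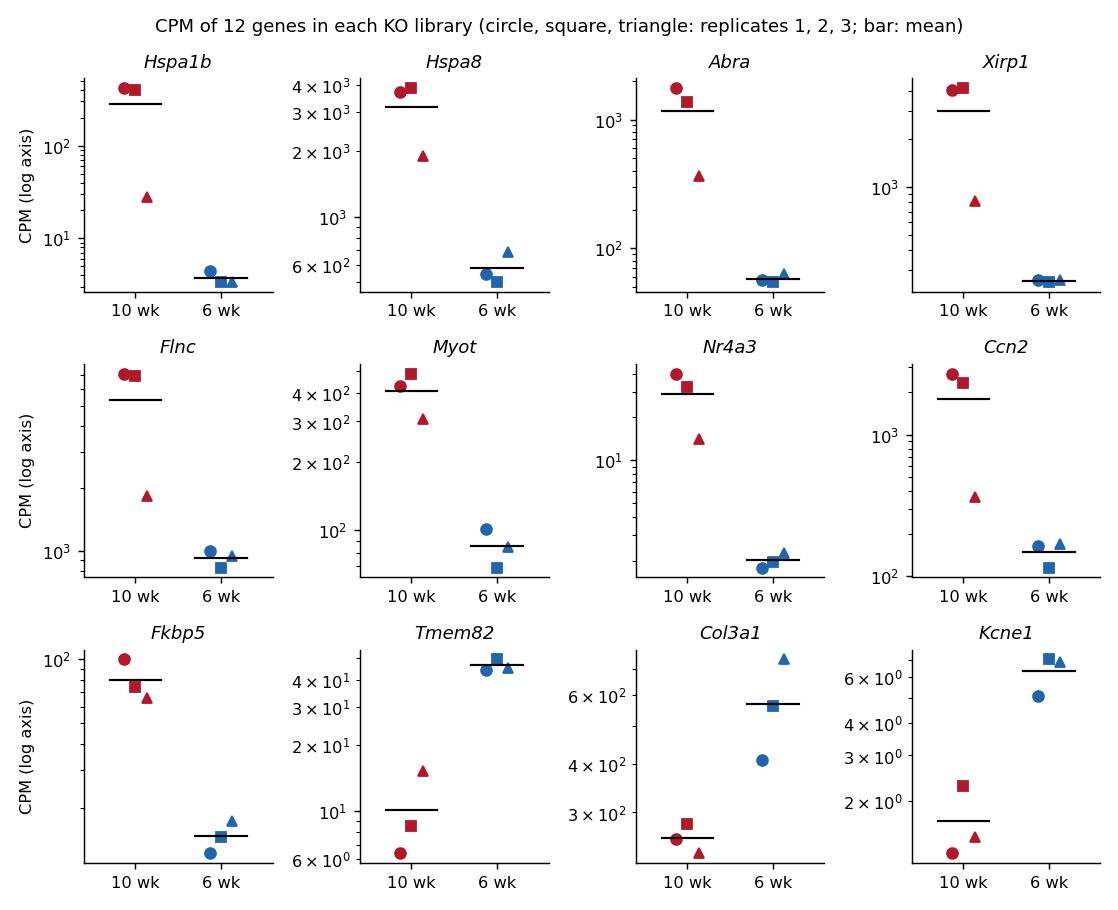
CPM on log axes of 12 genes in each KO library, with 10 weeks in red to the left of 6 weeks in blue; circle, square and triangle are replicates 1, 2 and 3 and the bar is the group mean. The groups do not overlap in any of the 12, which the naming rule required for Hspa1b, Abra, Xirp1, Nr4a3, Ccn2 and Tmem82. Replicate 3 at 10 weeks lies nearest to the 6-week values for Hspa1b, Abra, Xirp1, Flnc and Ccn2.

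Genes of stretched and remodelling muscle rose with them. Of 22 natriuretic and foetal stress genes 8 rose and 0 fell (median log2 0.62), with 4 risen in the fit of the 6 KO libraries alone and 17 when low counts were not filtered. Abra (STARS, an actin-binding activator of serum response factor signalling; GRCm38 chromosome 15) was among the 12 largest increases, at 1755, 1365 and 366 CPM in KO at 10 weeks, against 56.7, 54.6 and 63.1 CPM in KO at 6 weeks (log2 4.32, SE 0.54, adjusted p = 0.00036). Xirp1, an actin-binding repair protein of the intercalated disc, was at 4050, 4180 and 814 CPM in KO at 10 weeks and 259, 252 and 258 CPM in KO at 6 weeks (log2 3.56, SE 0.58, adjusted p = 0.0020). For both, the 6-week libraries were within a narrow range and the 10-week libraries were widely spread above it. Xirp1 was at 297, 246 and 833 CPM in KO at 3 weeks, which was not tested. The 833 CPM was in KO 3 weeks replicate 3, the library of that age with high Myl7 and Sln. Fgf6, a fibroblast growth factor best known from skeletal muscle, was at 85.6, 69.9 and 52.0 CPM in KO at 10 weeks and 12.8, 11.9 and 16.0 CPM in KO at 6 weeks (log2 2.35, SE 0.20, adjusted p = 8.3e-07). Fgf6 also rose in WT (log2 1.25, adjusted p = 0.031), and the difference of the changes did not pass (1.10, SE 0.42, adjusted p = 0.13). Rcan1, a feedback inhibitor and target of calcineurin, was at 826, 1483 and 310 CPM in KO at 10 weeks and 182, 176 and 209 CPM in KO at 6 weeks (log2 2.21, SE 0.46, adjusted p = 0.0078).

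The classical markers did not move alike. Nppb, the B-type natriuretic peptide, was at 3285, 4274 and 1660 CPM in KO at 10 weeks, against 720, 542 and 833 CPM in KO at 6 weeks (log2 2.14, SE 0.36, adjusted p = 0.0019). Myh7, the slow beta myosin heavy chain, was at 6948, 14183 and 14600 CPM in KO at 10 weeks and 5264, 3282 and 3380 CPM in KO at 6 weeks (log2 1.58, SE 0.24, adjusted p = 0.00058). In both genes the groups did not overlap. Nppa, the A-type peptide, was at 10308, 17428 and 13596 CPM in KO at 10 weeks and 13368, 7380 and 9359 CPM in KO at 6 weeks (log2 0.46, SE 0.31, adjusted p = 0.37). Acta1, skeletal alpha actin, gave log2 0.59 (SE 0.27, adjusted p = 0.18) and Ankrd1, a titin-bound stretch protein, 0.65 (SE 0.44, adjusted p = 0.37). In WT these 3 were far lower at both ages, with at most 467 CPM of Nppa, 669 of Acta1 and 937 of Ankrd1. Myh6, the adult alpha myosin heavy chain, gave 0.17 (SE 0.13, adjusted p = 0.42). The difference from the WT change passed for Xirp1 (log2 3.45, SE 0.76, adjusted p = 0.022), Abra (4.10, SE 0.70, adjusted p = 0.0053) and Myh7 (1.54, SE 0.33, adjusted p = 0.014), and not for Nppb (1.59, SE 0.49, adjusted p = 0.074). For Xirp1 it was lost in 5 of the 12 fits with 1 KO or WT library left out (0.051 to 0.0614). These were the fits without WT 6 weeks replicate 3, WT 10 weeks replicate 1 or 3, KO 6 weeks replicate 2 or KO 10 weeks replicate 2. It was also lost without the atrial-rich pair (0.077). Abra and Myh7 kept it in all 12.

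Sarcomere genes rose mainly at the Z-disc, where MLP is found. Of 31 sarcomere, Z-disc and M-band genes 12 rose and 0 fell (median log2 0.45), and 9 of the 15 Z-disc genes were among the 12. Flnc, the actin crosslinker filamin C, was at 7120, 6941 and 1828 CPM in KO at 10 weeks, against 998, 828 and 946 CPM in KO at 6 weeks (log2 2.52, SE 0.46, adjusted p = 0.0038). In KO at 3 weeks Flnc was at 855, 968 and 1972 CPM, which was not tested. The 1972 CPM was in KO 3 weeks replicate 3, the library of that age with high Myl7 and Sln. Myot, myotilin, which binds alpha-actinin and filamin C, was at 430, 486 and 308 CPM in KO at 10 weeks and 101, 68.7 and 85.0 CPM in KO at 6 weeks (log2 2.26, SE 0.25, adjusted p = 4.8e-05). Synpo2l, an actin-bundling Z-disc protein, was at 1964, 2854 and 963 CPM in KO at 10 weeks and 387, 415 and 431 CPM in KO at 6 weeks (log2 2.23, SE 0.46, adjusted p = 0.0074). Mypn, which links nebulin family proteins and alpha-actinin, was at 341 to 514 CPM in KO at 10 weeks and 150 to 168 CPM in KO at 6 weeks (log2 1.45, SE 0.17, adjusted p = 2.9e-05). In all 4 genes the 10-week values lay above every 6-week value. Over the same weeks 1 of the 31 genes rose and 4 fell in WT. With any WT library left out 0 rose, and 7 fell without WT 6 weeks replicate 2. The difference between the KO and WT changes passed for 11 of them, all higher in KO, against 3.12% of all genes in that direction. Flnc was not among the 11 (log2 difference 2.11, SE 0.62, adjusted p = 0.068), and Synpo2l was (2.44, SE 0.63, adjusted p = 0.041). This call was lost in every fit with 1 library left out except that without KO 10 weeks replicate 3 (0.063 to 0.0979 in the other 11). The count of 11 was 4 without WT 6 weeks replicate 3, KO 6 weeks replicate 2 or KO 10 weeks replicate 2, and 5 without WT 10 weeks replicate 3 or KO 6 weeks replicate 3. It was 6 without WT 10 weeks replicate 1 or 2, 7 without replicate 1 of either genotype at 6 weeks, and 17 when low counts were not filtered. The difference of Mypn (0.86, adjusted p = 0.037) was lost in 10 of the 12 fits (0.0557 to 0.0954). Without the atrial-rich pair Synpo2l was at an adjusted p of 0.054 in KO and 8 members were called.

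Immediate early genes, which are switched on within minutes by many signals, rose in 8 of 23 cases and fell in 0 (median log2 0.69). Nr4a3, an orphan nuclear receptor, was at 40.1, 32.6 and 14.01 CPM in KO at 10 weeks, against 1.79, 1.96 and 2.27 CPM in KO at 6 weeks (log2 3.84, SE 0.51, adjusted p = 0.00039). At 3 weeks the KO libraries already had 33.8, 95.7 and 94.6 CPM, above every value of KO at 6 weeks; this difference was not tested. Atf3, a stress-induced repressor, was at 180, 114 and 12.9 CPM in KO at 10 weeks and 3.74, 3.52 and 6.87 CPM in KO at 6 weeks (log2 4.44, SE 1.08, adjusted p = 0.019). Its call was lost without any 1 of the 3 KO 6 weeks replicates (adjusted p = 0.0684, 0.0865 and 0.0539) and without the atrial-rich pair (0.098). Ier5, which acts with heat shock factor, was at 210, 124 and 109 CPM in KO at 10 weeks and 44.7, 52.9 and 72.8 CPM in KO at 6 weeks (log2 1.38, SE 0.28, adjusted p = 0.0060). The count of 8 was 5 without KO 6 weeks replicate 1, 5 without KO 6 weeks replicate 2, 5 in the fit of the 6 KO libraries alone and 16 when low counts were not filtered. In WT 2 of the 23 rose and 0 fell. The difference between the KO and WT changes passed for 1 of the 23, higher in KO, and for 1 to 9 in the other settings. It did not pass for Nr4a3 (log2 2.60, SE 0.86, adjusted p = 0.094) or Atf3 (3.33, SE 1.47, adjusted p = 0.21).

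Among the other largest increases were genes at low levels. Pou3f1, a POU domain transcription factor, was at 13.5, 17.8 and 9.92 CPM in KO at 10 weeks and 0.806, 1.004 and 1.16 CPM in KO at 6 weeks (log2 3.78, SE 0.51, adjusted p = 0.00015). Tent5b, a poly(A) polymerase, was at 35.1, 39.6 and 8.52 CPM in KO at 10 weeks and 4.78, 2.46 and 2.71 CPM in KO at 6 weeks (log2 3.07, SE 0.49, adjusted p = 0.0013). Cldn23, a claudin, reached 9.82 CPM in KO 10 weeks replicate 1, against 1.93 and 0.642 CPM in the other 10-week replicates and at most 0.443 CPM in KO at 6 weeks (log2 3.98, SE 0.85, adjusted p = 0.0048). Its fold therefore rests largely on 1 library, one of the atrial-rich pair. Cdh22, a cadherin, was at 1.46 to 2.88 CPM in KO at 10 weeks and 0.151 to 0.346 CPM in KO at 6 weeks (log2 3.04, SE 0.61, adjusted p = 0.0024).

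Matrix genes split by kind. Of 48 collagen and matrix genes 14 fell and 4 rose (median log2 -0.32), and 7 of the 11 fibrillar and associated collagens were among those that fell. In WT over the same weeks 7 of the 48 fell and 0 rose (median log2 -0.27). With 1 WT library left out 2 to 7 fell. The difference between the KO and WT changes passed for 4 upward and 2 downward, against 3.12% and 2.63% of all genes. Col3a1, a fibril-forming collagen of distensible tissue, was at 257, 280 and 236 CPM in KO at 10 weeks, against 409, 562 and 742 CPM in KO at 6 weeks (log2 -1.15, SE 0.16, adjusted p = 0.00015). Col14a1, a collagen that binds to fibrils, was at 13.7 to 19.2 CPM in KO at 10 weeks and 27.2 to 47.3 CPM in KO at 6 weeks (log2 -1.16, SE 0.21, adjusted p = 0.0016). Lum, a proteoglycan that spaces collagen fibrils, was at 47.6, 45.4 and 37.4 CPM in KO at 10 weeks and 77.4, 94.0 and 94.4 CPM in KO at 6 weeks (log2 -1.03, SE 0.17, adjusted p = 0.00045). The 6-week values were higher in every library for all 3 genes. Col3a1 also fell in WT (log2 -0.59, adjusted p = 0.027). The difference from the WT change passed for Lum (log2 -1.04, SE 0.23, adjusted p = 0.012). It did not pass for Col3a1 (-0.56, SE 0.23, adjusted p = 0.16) or Col14a1 (-0.61, SE 0.30, adjusted p = 0.24). Col1a1 gave log2 -0.74 (SE 0.20, adjusted p = 0.024), and this call was lost without KO 6 weeks replicate 2 or 3 or any of the KO 10 weeks replicates (0.0567 to 0.0988). Postn, periostin of activated fibroblasts, was at 25.2 to 48.5 CPM in KO at 10 weeks and 76.1 to 102 CPM in KO at 6 weeks, which did not pass (log2 -1.12, SE 0.39, adjusted p = 0.076). The 14 fibroblast markers summed to 2145 to 2495 CPM in KO at 10 weeks and 2409 to 2789 CPM in KO at 6 weeks, with no marker at 0. Of the 13 tested 2 rose and 2 fell, the latter being Lum and Col1a1, already given above. Without the atrial-rich pair these were 0 and 1, and each of the 6 libraries, when left out, lowered the risen count to 0 or 1. Their part in the fall of the collagens was not tested.

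Of the 4 matrix genes that rose, 3 are described here. Ccn2, connective tissue growth factor, was at 2704, 2313 and 362 CPM in KO at 10 weeks, against 164, 115 and 169 CPM in KO at 6 weeks (log2 3.59, SE 0.75, adjusted p = 0.0088). Timp4, a cardiac inhibitor of metalloproteinases, was at 60.3, 39.5 and 35.1 CPM in KO at 10 weeks and 14.6, 17.9 and 17.9 CPM in KO at 6 weeks (log2 1.42, SE 0.22, adjusted p = 0.00069). Mmp3, a stromelysin, gave 1.99 (SE 0.46, adjusted p = 0.0075), and lost its call without KO 6 weeks replicate 2 (0.052). The difference from the WT change passed for these 3. It was lost for Mmp3 in 8 of the 12 fits with 1 library left out (0.0563 to 0.102) and for Ccn2 in 5 (0.0525 to 0.0707). Those of Ccn2 were the same 5 fits as for Xirp1. Timp4 went the other way in WT, to 23.7 to 39.98 CPM in WT at 10 weeks, against 87.0 to 97.8 CPM in WT at 6 weeks (log2 -1.45, adjusted p = 0.00051). Without the atrial-rich pair Ccn2 was at an adjusted p of 0.065 and the list had 8 falls and 2 rises; the fit of the 6 KO libraries alone also had 2 rises.

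The TGF-beta and activin list was mixed. Of 21 genes 5 rose (Tgfb2, Inhba, Inhbb, the co-receptor Eng by 0.48 and the inhibitor Smad7 by 0.54) and 3 fell. In WT 4 of the 21 rose and 0 fell, and 1 to 4 rose with 1 WT library left out. The difference between the KO and WT changes passed for 0 upward and 2 downward. Inhba, the activin A subunit, was at 29.2, 16.6 and 1.17 CPM in KO at 10 weeks and 1.61, 1.21 and 0.886 CPM in KO at 6 weeks (log2 3.65, SE 0.81, adjusted p = 0.010), with replicate 3 inside the 6-week range. Tgfb2 was at 197, 263 and 61.5 CPM in KO at 10 weeks and 33.0, 27.8 and 37.5 CPM in KO at 6 weeks (log2 2.41, SE 0.56, adjusted p = 0.014), and Inhbb, the activin B subunit, gave 1.71 (SE 0.39, adjusted p = 0.0077). Tgfbr3, the co-receptor betaglycan, was at 17.9 to 24.5 CPM in KO at 10 weeks and 30.1 to 31.8 CPM in KO at 6 weeks (log2 -0.50, SE 0.13, adjusted p = 0.012). Smad3, the receptors' signal carrier, gave -0.49 (SE 0.14, adjusted p = 0.026) and Gdf11, another ligand, -0.76 (SE 0.24, adjusted p = 0.038). These are weakly supported: Gdf11 lost its call without any 1 of the 6 libraries (0.0643 to 0.113), Smad3 without any KO 6 weeks replicate or KO 10 weeks replicate 2 (0.0524 to 0.174), Tgfb2 without replicate 2 of either age (0.0689 and 0.0605), Inhba without KO 6 weeks replicate 2 (0.052) and Tgfbr3 without KO 10 weeks replicate 2 (0.115). The count of 5 was 3 without KO 6 weeks replicate 1, 1 without KO 6 weeks replicate 2, 3 without KO 10 weeks replicate 1 and 3 without KO 10 weeks replicate 2. It was 1 without the atrial-rich pair and 0 in the fit of the 6 KO libraries alone. The 3 that fell were 1 without any 1 of the KO 6 weeks replicates, 0 without KO 10 weeks replicate 2, 1 without the atrial-rich pair and 0 in the fit of 6 libraries.

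Glucocorticoid-responsive genes were higher at 10 weeks in KO. Glucocorticoids act through a nuclear receptor that induces Fkbp5, Zbtb16 and the metallothioneins in many tissues. Of 19 such genes tested 11 rose and 0 fell in KO (median log2 0.81), while in WT over the same weeks 3 rose and 8 fell. The 11 were 7 in the fit of the 6 KO libraries alone, and the 3 of WT were 1 without WT 10 weeks replicate 2 and 0 without any other WT library. Fkbp5, a co-chaperone of the receptor, was at 100.2, 74.2 and 66.1 CPM in KO at 10 weeks, against 12.2, 14.6 and 17.3 CPM in KO at 6 weeks (log2 2.44, SE 0.20, adjusted p = 8.3e-07). In WT it was at 16.6 to 20.6 CPM at 10 weeks and 27.4 to 42.2 CPM at 6 weeks (log2 -0.84, adjusted p = 0.010). Zbtb16, a zinc finger repressor, was at 192, 129 and 70.6 CPM in KO at 10 weeks and 35.6, 37.5 and 34.1 CPM in KO at 6 weeks (log2 1.87, SE 0.31, adjusted p = 0.0016), and in WT at 29.7 to 49.1 CPM at 10 weeks and 155 to 181 CPM at 6 weeks. The genotypes moved in opposite directions. Mt2, a metal-binding metallothionein, was at 34.0 to 47.7 CPM in KO at 10 weeks and 8.69 to 15.1 CPM in KO at 6 weeks (log2 1.61, SE 0.22, adjusted p = 0.00013), and Mt1 gave 1.30 (SE 0.18, adjusted p = 0.00013).

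Cdkn1a, the cell cycle inhibitor p21 and also a p53 target, was at 119, 107 and 73.6 CPM in KO at 10 weeks and 11.7, 12.3 and 20.4 CPM in KO at 6 weeks (log2 2.75, SE 0.22, adjusted p = 2.1e-06). Of the 19 p53 target genes tested it was the 1 that rose, and Eda2r, a receptor gene, fell (log2 -1.26), a call lost without KO 6 weeks replicate 2 or KO 10 weeks replicate 2. Pdk4, which blocks the entry of glucose carbon into mitochondria, was at 1363, 749 and 433 CPM in KO at 10 weeks and 102, 147 and 214 CPM in KO at 6 weeks (log2 2.46, SE 0.45, adjusted p = 0.0036), and Lcn2, lipocalin 2, rose by 2.66 (SE 0.49, adjusted p = 0.0012) to 1.98 to 4.49 CPM. Other receptor targets gave no such change: Tsc22d3 (GILZ) had a log2 change of 0.24 (SE 0.14, adjusted p = 0.28) and Klf9 of -0.18 (SE 0.16, adjusted p = 0.51). At 3 weeks the KO libraries held 62.7 to 82.3 CPM of Fkbp5, 143 to 260 CPM of Zbtb16, 39.9 to 59.4 CPM of Mt2 and 107 to 170 CPM of Cdkn1a, and the 6-week values were below all of these; the 3-week group was not tested here. The difference between the KO and WT changes passed for 11 of the 19 genes, all higher in KO, against 3.12% of all genes in that direction. For Fkbp5 it was 3.29 (SE 0.28, adjusted p = 3.5e-07) and for Zbtb16 3.96 (SE 0.44, adjusted p = 0.00011). The labels give no time of day or handling of the animals, so neither could be set beside these values.

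**Figure D4:**
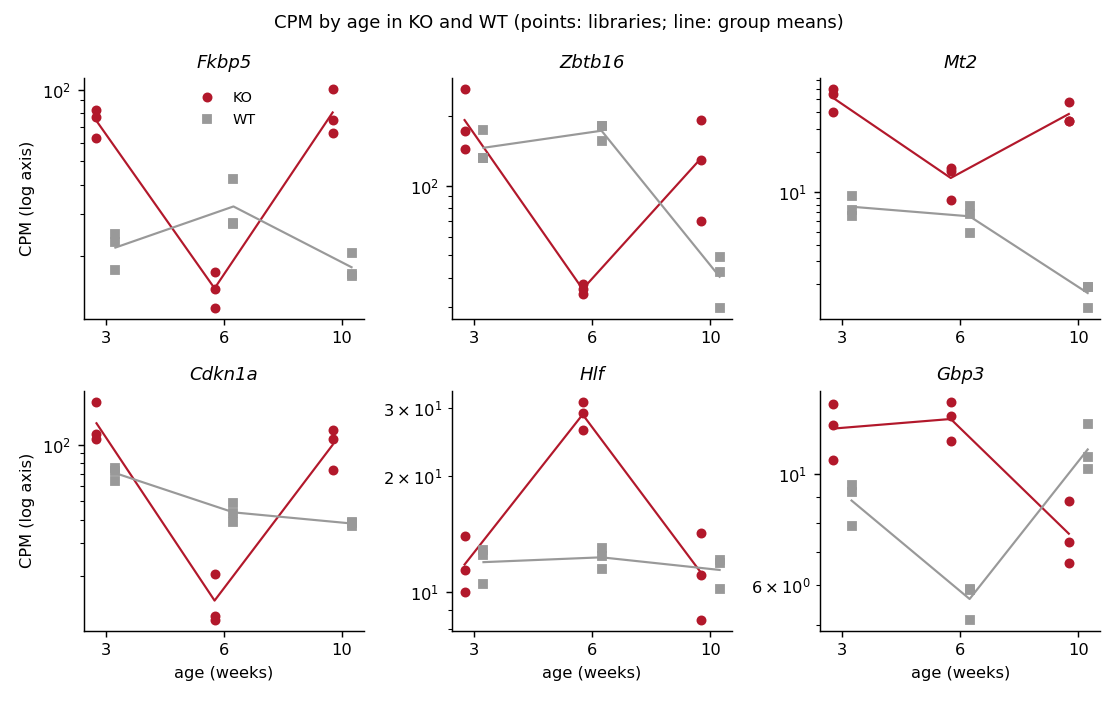
CPM on log axes at 3, 6 and 10 weeks in KO (red circles) and WT (grey squares), with lines through the group means. Fkbp5, Zbtb16, Mt2 and Cdkn1a are lowest at 6 weeks in KO, Hlf is highest at 6 weeks in KO, and Gbp3 is lower in KO and higher in WT at 10 weeks than at 6 weeks.

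Genes of the clock moved in part. The circadian clock pairs activators such as Arntl (BMAL1) with repressors such as the Per genes, and acts on tissues through the factors Dbp, Hlf and Tef, which bind the D box and are opposed by Nfil3. Of 23 genes 3 rose and 5 fell in KO. Arntl was at 17.0, 26.7 and 11.4 CPM in KO at 10 weeks and 5.99, 2.96 and 8.14 CPM in KO at 6 weeks (log2 1.70, SE 0.37, adjusted p = 0.0083). Nfil3 was at 83.1, 53.8 and 20.3 CPM in KO at 10 weeks and 14.1, 11.2 and 12.2 CPM in KO at 6 weeks (log2 2.07, SE 0.42, adjusted p = 0.0069), and Per1 gave 0.55 (SE 0.16, adjusted p = 0.031). Among the genes that fell, Per3 was at 14.2, 17.3 and 27.0 CPM in KO at 10 weeks and 52.0, 65.4 and 50.7 CPM in KO at 6 weeks (log2 -1.52, SE 0.34, adjusted p = 0.0095). Hlf was at 11.1, 8.46 and 14.2 CPM in KO at 10 weeks and 26.3, 31.2 and 29.1 CPM in KO at 6 weeks (log2 -1.36, SE 0.16, adjusted p = 3.0e-05), and Wee1, a mitotic kinase under clock control, gave -0.79 (SE 0.21, adjusted p = 0.014). Dbp was at 31.8, 56.5 and 93.3 CPM in KO at 10 weeks and 149, 186 and 152 CPM in KO at 6 weeks without passing (log2 -1.42, SE 0.49, adjusted p = 0.077). The 250 bases before the start of Per3 (RefSeq, GRCm38.p6, chr4:151044666-151044915, minus strand) are shown because they hold TTATGTAA at 2 places, matches to the D box searched as TTANNTAA, in capitals.
Per3: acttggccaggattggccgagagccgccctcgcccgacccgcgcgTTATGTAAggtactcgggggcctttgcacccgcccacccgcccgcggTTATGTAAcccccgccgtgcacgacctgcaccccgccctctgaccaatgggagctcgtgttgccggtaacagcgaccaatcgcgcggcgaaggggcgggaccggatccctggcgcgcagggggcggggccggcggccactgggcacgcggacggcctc
Of the 18 genes of the list matched by name to a window 3 held a match, as did 2 of the 4 so matched that fell, against 4.24% of tested genes. The search by name found 2 of the 3 risen genes, so a gene listed under several names may be missing from the 18. The list was chosen as clock genes, so these shares do not test a link between the D box and the falls. Hlf differed from its WT change (log2 difference -1.25, SE 0.23, adjusted p = 0.0027), and Arntl (0.88, adjusted p = 0.33), Nfil3 (0.85, adjusted p = 0.43) and Per3 (-0.42, adjusted p = 0.68) did not pass. Per1 lost its call without KO 6 weeks replicate 1 or 3 or KO 10 weeks replicate 1 (0.0576 to 0.13), Wee1 without replicate 2 of either age (0.105 and 0.0959) and Per3 without KO 10 weeks replicate 2 (0.0512). The count of 5 was 3 without KO 6 weeks replicate 1, 2 without KO 6 weeks replicate 2, 3 without KO 10 weeks replicate 1, 1 without KO 10 weeks replicate 2 and 3 without the atrial-rich pair, and the count of 3 was 6 without KO 10 weeks replicate 3. In the fit of the 6 KO libraries alone the counts were 0 risen and 2 fallen, and 7 were called higher with DESeq2.

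ATF4 drives the response to amino acid shortage and mitochondrial stress. Of 25 genes of that response 7 rose and 0 fell in KO, while in WT 0 rose and 6 fell (3 without WT 6 weeks replicate 1 or WT 10 weeks replicate 2). Atf4 was at 180, 186 and 140 CPM in KO at 10 weeks, against 102, 95.1 and 97.6 CPM in KO at 6 weeks (log2 0.78, SE 0.10, adjusted p = 7.5e-05). Gdf15, a secreted stress hormone, was at 28.9, 68.1 and 46.0 CPM in KO at 10 weeks and 14.1, 10.9 and 22.1 CPM in KO at 6 weeks (log2 1.61, SE 0.31, adjusted p = 0.0029). Both lay above their 6-week values in all libraries, and both differed from the WT change (log2 difference 0.94, SE 0.15, adjusted p = 0.00049 for Atf4 and 1.83, SE 0.48, adjusted p = 0.035 for Gdf15). The difference for Gdf15 was lost in 7 of the 12 fits with 1 library left out (0.0656 to 0.0947). The libraries left out were WT 6 weeks replicates 2 and 3, WT 10 weeks replicates 1 and 3, KO 6 weeks replicates 1 and 2 and KO 10 weeks replicate 2. The 7 risen genes became 4 without KO 6 weeks replicate 1 or 2 and 3 in the fit of the 6 KO libraries alone. Of 24 antioxidant genes 6 rose and 0 fell, among them Srxn1, sulfiredoxin, by 1.42 (SE 0.22, adjusted p = 0.00039) and Hmox1, heme oxygenase 1, by 0.80 (SE 0.16, adjusted p = 0.0027).

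Some fuel genes rose. Of 43 genes of fatty acid oxidation 13 rose and 0 fell (median log2 0.25), 12 of them by less than 0.70 on the log2 scale and Pdk4 by more. In WT over the same weeks 8 of the 43 rose and 3 fell (median log2 0.15). With 1 WT library left out 3 to 5 rose and 0 to 3 fell. The difference between the KO and WT changes passed for 3 upward and 2 downward, against 3.12% and 2.63% of all genes. Cd36, the fatty acid transporter, was at 1025, 866 and 746 CPM in KO at 10 weeks and 582, 610 and 509 CPM in KO at 6 weeks (log2 0.63, SE 0.14, adjusted p = 0.0062). Pparg, a nuclear receptor of lipid storage, was at 9.46 to 10.5 CPM in KO at 10 weeks and 5.22 to 6.97 CPM in KO at 6 weeks (log2 0.69, SE 0.18, adjusted p = 0.015). Of 28 genes of glucose uptake and glycolysis 7 rose and 0 fell, and 11 rose without KO 10 weeks replicate 1. Slc2a1, the glucose transporter GLUT1, was at 40.5, 63.5 and 33.5 CPM in KO at 10 weeks and 19.2, 18.6 and 19.6 CPM in KO at 6 weeks (log2 1.26, SE 0.20, adjusted p = 0.00048), and in WT it fell to 7.09 to 11.6 CPM at 10 weeks, against 15.5 to 18.03 CPM at 6 weeks. The glycolytic enzyme Pgam1 rose by 1.07 (SE 0.15, adjusted p = 0.00011) and Phka1, a subunit of the kinase that turns on glycogen breakdown, by 0.96 (SE 0.13, adjusted p = 0.00011).

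Respiratory genes gave no call in KO. Of 49 nuclear genes of oxidative phosphorylation 0 rose and 0 fell in edgeR at the adjusted threshold (median log2 0.13). An unadjusted p under 0.05 was found for 8, DESeq2 called 6 higher, and 3 were higher without KO 10 weeks replicate 1. Of the 13 mitochondrially encoded messenger RNAs 0 changed and 0 had an unadjusted p under 0.05 (median log2 -0.15), with 2 called lower once the atrial-rich pair was left out. Atp5a1, an ATP synthase subunit, had the smallest p of the nuclear list, at 4045 to 4506 CPM in KO at 10 weeks and 3476 to 3566 CPM in KO at 6 weeks (log2 0.28, SE 0.09, adjusted p = 0.056). mt-Co1, a cytochrome oxidase subunit, gave 0.16 (SE 0.14, adjusted p = 0.50). In WT 22 of the 49 fell, and 8 differed between the genotypes, all higher in KO. Both counts depended on single libraries. The 22 were 2 without WT 6 weeks replicate 1, 3 without WT 10 weeks replicate 1, and 5 without WT 10 weeks replicate 2. They were 11 without WT 6 weeks replicate 3 and 14 without WT 10 weeks replicate 3. The 8 were 0 without any 1 of WT 6 weeks replicates 1 and 3, WT 10 weeks replicates 1 and 2, KO 6 weeks replicates 2 and 3 and KO 10 weeks replicate 2. They were 3 without KO 6 weeks replicate 1, 2 without the atrial-rich pair, 21 without WT 6 weeks replicate 2, 13 when low counts were not filtered and 24 with DESeq2. Of 40 cytosolic ribosomal protein genes 0 changed in KO in edgeR or DESeq2, and 0 had an unadjusted p under 0.05. In WT 13 fell, a count that was 1 without WT 6 weeks replicate 1, 4 without WT 6 weeks replicate 3, 3 without any of the WT 10 weeks replicates and 20 in the fit of the 6 WT libraries alone. The 13 risen fatty acid genes were 6 without KO 6 weeks replicate 1, 5 without KO 6 weeks replicate 2, 7 without KO 6 weeks replicate 3, 7 without KO 10 weeks replicate 2 and 4 without the atrial-rich pair, whose fat transcripts (Adipoq above) lie in 1 library of each age. Pparg lost its call without KO 6 weeks replicate 2 (0.0905), and Cd36 without that pair (0.098).

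Calcium handling and excitability genes moved apart. Of 23 calcium handling genes 6 rose and 0 fell. Slc8a1, the sodium-calcium exchanger, was at 258, 251 and 165 CPM in KO at 10 weeks and 132, 124 and 105 CPM in KO at 6 weeks (log2 0.90, SE 0.21, adjusted p = 0.010). Jph2, which holds the surface membrane to the calcium store, gave 0.49 (SE 0.12, adjusted p = 0.0097) and Ryr2, the release channel, 0.48 (SE 0.13, adjusted p = 0.017). Of 27 ion channel and gap junction genes 8 fell and 1 rose (median log2 -0.25). Kcne1, a potassium channel subunit, was at 1.26, 2.30 and 1.46 CPM in KO at 10 weeks and 5.07, 7.03 and 6.87 CPM in KO at 6 weeks (log2 -1.91, SE 0.34, adjusted p = 0.0017). Gja1, connexin 43, the main ventricular gap junction protein, was at 281, 427 and 434 CPM in KO at 10 weeks and 711, 618 and 599 CPM in KO at 6 weeks (log2 -0.76, SE 0.16, adjusted p = 0.0033). All 10-week values lay below the 6-week values in both. Kcnh2 gave -1.05 (SE 0.27, adjusted p = 0.021) and Kcnj5, also an atrial marker, -0.89 (SE 0.23, adjusted p = 0.016), and the 1 riser was Kcna5 (0.77, SE 0.20, adjusted p = 0.015). Gja1 differed from the WT change (log2 difference -0.83, SE 0.22, adjusted p = 0.031). This call was lost in 7 of the 12 fits with 1 library left out (0.0614 to 0.0972). The libraries were replicates 1 and 3 of WT at both ages, KO 6 weeks replicates 1 and 2 and KO 10 weeks replicate 1. Kcne1, which also fell in WT, did not pass this test (-0.46, SE 0.43, adjusted p = 0.59).

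These counts depended on single libraries. The 6 calcium genes were 3 without KO 6 weeks replicate 3 and 1 without the atrial-rich pair, where Ryr2 (0.18) and Slc8a1 (0.11) were not called. The 8 channel genes were 4 without KO 6 weeks replicate 3, 5 without the pair, 4 in the fit of the 6 KO libraries alone and 13 when low counts were not filtered. Kcnh2 lost its call without KO 6 weeks replicate 2 or 3 (0.0608 and 0.063), Kcnj5 without KO 6 weeks replicate 3 (0.0505), Kcna5 without KO 6 weeks replicate 1 or 3 (0.0503 and 0.0571) and Ryr2 without KO 6 weeks replicate 3 or KO 10 weeks replicate 1 (0.0825 and 0.0515).

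**Figure D5:**
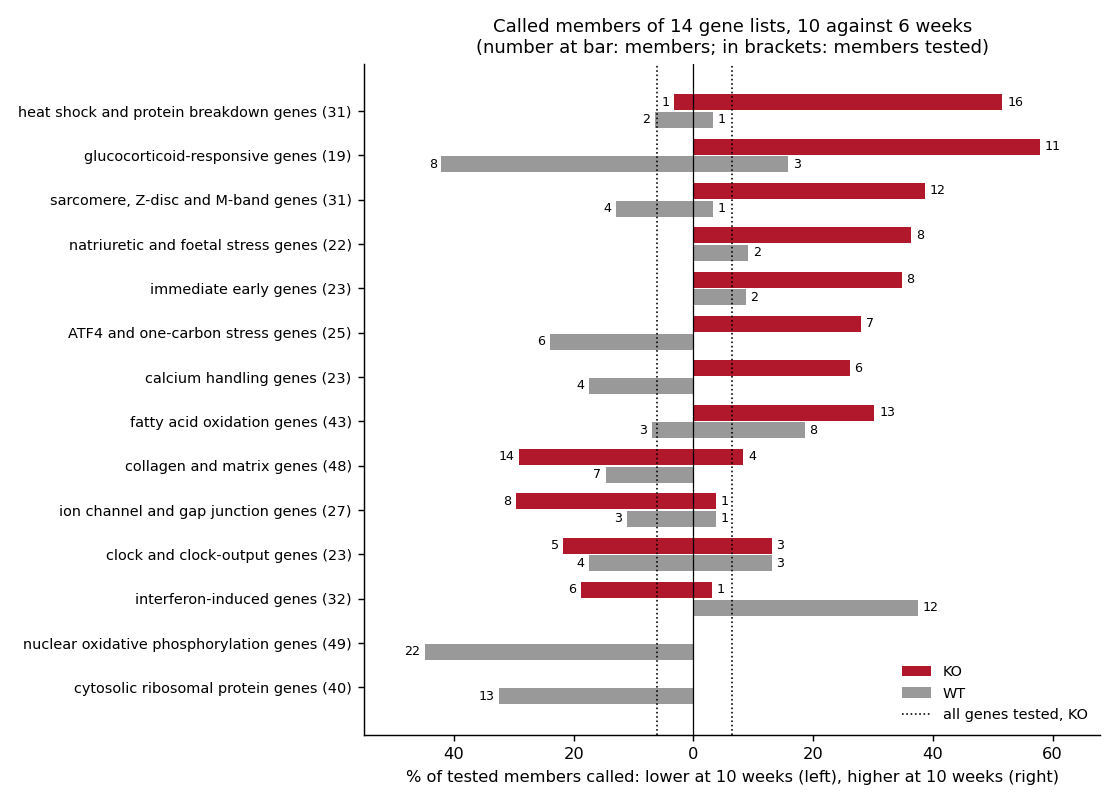
Share of the tested members of 14 gene lists called lower (left) or higher (right) at 10 weeks than at 6 weeks, in KO (red, upper bar) and WT (grey, lower bar), with member counts at the bars and the KO shares over all genes, 6.14% lower and 6.52% higher, as dotted lines. The heat shock list has 16 risen members in KO and 1 in WT, and the interferon list 1 in KO and 12 in WT.

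Of 32 interferon-induced genes 6 fell and 1 rose in KO (median log2 -0.25), while 12 rose and 0 fell in WT. Over all genes 6.14% fell and 6.52% rose in KO, and 3.64% rose and 5.12% fell in WT. Gbp3, a guanylate-binding protein, was at 8.84, 7.31 and 6.65 CPM in KO at 10 weeks, against 13.1, 13.96 and 11.6 CPM in KO at 6 weeks (log2 -0.76, SE 0.16, adjusted p = 0.0028). In WT it was at 10.2 to 12.6 CPM at 10 weeks and 5.11 to 5.90 CPM at 6 weeks, and the difference of the changes was -1.76 (SE 0.22, adjusted p = 3.7e-05). The 1 riser, Gbp6, gave 0.89 (SE 0.19, adjusted p = 0.0037), and Iigp1 (-0.86, SE 0.25, adjusted p = 0.032) and Rtp4 (-0.65, SE 0.21, adjusted p = 0.049) fell. The difference between the genotypes passed for 11 of the 32, all lower in KO, against 2.63% of all genes in that direction. It passed for 7 without KO 6 weeks replicate 2. The 12 risen genes of WT were 6 without WT 6 weeks replicate 2 or WT 10 weeks replicate 1 and 19 in the fit of the 6 WT libraries alone. The 6 became 2, 1 and 2 without KO 6 weeks replicates 1, 2 and 3, 2 without KO 10 weeks replicate 2, and 3 without the atrial-rich pair, with DESeq2's size factors or in the fit of the 6 KO libraries alone. Iigp1 lost its call in 4 of the 6 leave-one-out fits (0.0929 to 0.139) and Rtp4 in 4 (0.114 to 0.216).

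The complement chains C1qa, C1qb and C1qc, which tissue macrophages make, fell by 0.46, 0.53 and 0.57 on the log2 scale (adjusted p = 0.018, 0.0050 and 0.0053), and C1qb was at 27.3 to 29.9 CPM in KO at 10 weeks and 39.0 to 42.1 CPM in KO at 6 weeks. Of 14 macrophage markers 0 rose and 3 fell (0 fell without KO 6 weeks replicate 2, without the atrial-rich pair or in the fit of the 6 KO libraries alone). The 3 include C1qa, already given above. Another was Csf1r, the growth factor receptor of the lineage, at 31.4 to 32.6 CPM in KO at 10 weeks and 37.0 to 50.8 CPM in KO at 6 weeks (log2 -0.51, SE 0.12, adjusted p = 0.0067). The list summed to 174 to 238 CPM in KO at 10 weeks and 215 to 268 CPM in KO at 6 weeks, with no marker at 0. C1qb and C1qc fell in WT as well, by 0.58 and 0.49 (adjusted p = 0.0035 and 0.019). C1qa lost its call without KO 6 weeks replicate 2 or 3 or KO 10 weeks replicate 2 or 3 (0.0509 to 0.0965), Csf1r without KO 6 weeks replicate 2 (0.0531) and Trem2 (-1.03, SE 0.31, adjusted p = 0.031) in 4 of 6 such fits. Cxcl14, a chemokine, rose to 29.4, 14.7 and 10.9 CPM in KO at 10 weeks, against 3.86, 3.21 and 4.32 CPM in KO at 6 weeks (log2 2.26, SE 0.41, adjusted p = 0.0027).

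Of 15 endothelin and renin-angiotensin genes 3 rose and 0 fell. Agt, the precursor of angiotensin, was at 6.52, 10.1 and 8.29 CPM in KO at 10 weeks, against 1.27, 0.954 and 2.60 CPM in KO at 6 weeks (log2 2.37, SE 0.42, adjusted p = 0.0014), and its change differed from that in WT (log2 difference 3.56, SE 0.59, adjusted p = 0.0015). Edn3, endothelin 3, was at 56.1, 61.6 and 46.0 CPM in KO at 10 weeks and 14.3, 14.8 and 17.9 CPM in KO at 6 weeks (log2 1.80, SE 0.37, adjusted p = 0.0058), and rose in WT by 1.72 (adjusted p = 0.028). Corin, the protease that activates natriuretic peptides, rose by 0.76 (SE 0.15, adjusted p = 0.0019). Igf2, a foetal growth factor, was at 15.2 to 22.1 CPM in KO at 10 weeks and 30.7 to 39.9 CPM in KO at 6 weeks (log2 -0.92, SE 0.16, adjusted p = 0.00094), and H19, the non-coding RNA next to it, fell by 0.92 (SE 0.27, adjusted p = 0.033), a call lost in 4 of the 6 leave-one-out fits (0.0789 to 0.144).

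Other lists gave few calls. Of 21 citrate cycle genes 5 rose and 0 fell, of 22 endoplasmic reticulum chaperone genes 4 rose and 0 fell, and of 20 angiogenic and hypoxia genes 5 rose and 1 fell. These rising counts were 2, 1 and 2 without the atrial-rich pair. The citrate cycle count was 1 without KO 6 weeks replicate 2 or 3 or KO 10 weeks replicate 2, 2 without KO 6 weeks replicate 1 and 3 without KO 10 weeks replicate 3. It was 2 in the fit of the 6 KO libraries alone or with no filter on low counts, and 11 with DESeq2. The chaperone count was 2 without KO 6 weeks replicate 2 or 3. The angiogenic count was 3 without KO 6 weeks replicate 1, 2 without KO 6 weeks replicate 2 and 3 in the fit of 6 libraries. Of 28 genes of cholesterol and fatty acid synthesis 0 rose and 3 fell, and of 33 proliferation genes 0 rose and 1 fell. Of 28 complement, chemokine and cytokine genes 4 rose (9 with no filter on low counts) and 3 fell (5 without KO 10 weeks replicate 1), and of 13 adrenergic and muscarinic genes 1 rose and 0 fell. The single calls of the proliferation and adrenergic lists were both lost without the atrial-rich pair. Among the cell type lists 1 of 13 endothelial markers rose (0 without the pair, 0 to 3 with 1 KO library left out and 4 with DESeq2). In edgeR's test 0 of 11 mural cell markers and 0 of 11 epicardial and mesothelial markers were called. Of the mural markers 4 had an unadjusted p under 0.05, with 2 higher and 2 lower, and DESeq2 called 1 higher. All 11 epicardial markers had a positive log2 change (median 0.92), 4 of them with an unadjusted p under 0.05. Of these markers 3 were called higher with DESeq2, 1 with limma voom, 4 with no filter on low counts and 5 without KO 10 weeks replicate 3. The endothelial list summed to 1607 to 2029 CPM in KO at 10 weeks and 1281 to 1567 CPM in KO at 6 weeks. The epicardial list summed to 38.6 to 96.0 CPM in KO at 10 weeks and 29.8 to 42.6 CPM in KO at 6 weeks, and its part in any result was not tested.

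The 12 largest decreases differed in how far the 10-week libraries lay apart, and in 10 of them KO 10 weeks replicate 3 was the highest of its group. Col26a1, a collagen, was at 0.772, 0.967 and 0.934 CPM in KO at 10 weeks, against 4.21, 6.08 and 7.42 CPM in KO at 6 weeks (log2 -2.71, SE 0.30, adjusted p = 1.1e-05). Tmem82, a membrane protein, was at 6.38, 8.52 and 15.2 CPM in KO at 10 weeks and 44.5, 49.6 and 45.4 CPM in KO at 6 weeks (log2 -2.20, SE 0.22, adjusted p = 9.1e-06). Lrrc17, a secreted leucine-rich repeat protein, was at 0.423 to 1.11 CPM in KO at 10 weeks and 1.96 to 5.59 CPM in KO at 6 weeks (log2 -2.52, SE 0.39, adjusted p = 0.00032). Genes that act on chromatin and transcription were among them: Tet1, which oxidises methylcytosine, fell by 2.03 (SE 0.30, adjusted p = 0.00019), Rcor2, a corepressor subunit, by 2.14 (SE 0.38, adjusted p = 0.0020), Snai3, a Snail family repressor, by 2.57 (SE 0.55, adjusted p = 0.0049) and Foxo6, a forkhead factor, by 1.99 (SE 0.58, adjusted p = 0.033). For Snai3, KO 10 weeks replicate 3 stood at 1.58 CPM and the other two at 0.0702 and 0.121 CPM, against 2.55 to 4.32 CPM in KO at 6 weeks. Tet1 was at 1.33, 0.907 and 2.74 CPM in KO at 10 weeks and 5.59 to 8.35 CPM in KO at 6 weeks. Rcor2 was at 1.61, 3.39 and 7.18 CPM in KO at 10 weeks and 15.8 to 22.8 CPM in KO at 6 weeks. The sulfotransferase genes Gal3st2c and Gal3st3 fell by 2.41 (SE 0.50, adjusted p = 0.0047) and 2.01 (SE 0.46, adjusted p = 0.011), Rassf7 by 1.98 (SE 0.43, adjusted p = 0.0042), Tenm4, a teneurin, by 2.14 (SE 0.56, adjusted p = 0.016) and Plekhh1 by 2.40 (SE 0.66, adjusted p = 0.028). In KO at 10 weeks Gal3st2c was at 0.351, 0.181 and 1.81 CPM. Gal3st3 was at 1.40, 1.33 and 7.65 CPM and Plekhh1 at 0.351, 0.121 and 1.75 CPM. In each, replicate 3 was at least 4 times as high as the others. Rassf7 was at 0.491, 0.242 and 1.11 CPM and Tenm4 at 1.26, 0.302 and 0.817 CPM in KO at 10 weeks, also a wide spread. Plekhh1 lost its call without KO 6 weeks replicate 2 or KO 10 weeks replicate 1 or 2 (0.0981 to 0.142), Tenm4 without KO 6 weeks replicate 2 or 3 or KO 10 weeks replicate 2 (0.0615 to 0.0864), and Foxo6 in 5 of the 6 fits (0.0546 to 0.143). Without the atrial-rich pair 18 of the 24 largest changes stayed called; Hspa1a, Atf3, Ccn2, Plekhh1, Gal3st3 and Foxo6 did not. Of the other called genes named here, C1qa, C1qc, Col1a1, Csf1r, Eda2r, Fbxo32, Gdf11, H19, Hrasls, Hspb1, Iigp1, Inhba, Inhbb, Kcna5, Kcnh2, Mmp3, Nfil3, Per1, Per3, Pparg, Rtp4, Smad3, Tgfb2 and Trem2 also lost their KO call without that pair (adjusted p = 0.051 to 0.27).

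WT at 10 against 6 weeks gave 1383 calls, 8.77% of genes, with 575 higher (3.64%) and 808 lower (5.12%). Of the genes that rose in KO 117 also rose and 34 fell in WT, and of those that fell in KO 96 also fell and 23 rose in WT. The difference between the 2 changes passed for 908 genes (5.75%), 493 higher in KO (3.12%) and 415 lower (2.63%). Of the 1996 genes that changed in KO, 490 also passed this test, with 239 rising in KO and differing upward and 246 falling and differing downward. Another 325 had changed in WT without a KO call. This count of 908 was 460 without KO 6 weeks replicate 2, 504 without KO 10 weeks replicate 2, 1598 without KO 10 weeks replicate 3, and 493 to 603 without any of the WT replicates but WT 6 weeks replicate 2.

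Of the 16 largest differences between the KO and WT changes, 10 were in genes with no KO call. Kcnj14, a potassium channel, was at 7.93, 11.7 and 7.76 CPM in KO at 10 weeks and 11.98, 8.89 and 8.86 CPM in KO at 6 weeks, while WT stood at 0.592 to 1.05 CPM at 10 weeks and 61.1 to 63.0 CPM at 6 weeks. Eps8l1, an actin regulator, was at most 0.854 CPM in KO at both ages and at 14.1 to 25.4 CPM in WT at 10 weeks, against 0.171 to 0.660 CPM in WT at 6 weeks. Ptprn2, Hist1h2al, Rpl15-ps2 and Tpm3-rs7 were likewise near 0 in WT at 10 weeks (at most 0.937 CPM) and well detected in WT at 6 weeks. Their KO levels differed. The KO means at 10 and 6 weeks were 15.9 and 15.1 CPM for Hist1h2al and 4.995 and 4.026 CPM for Rpl15-ps2. Ptprn2 (0.401 and 0.109 CPM) and Tpm3-rs7 (0.396 and 0.217 CPM) were near 0 in KO at both ages. Unc5a, Slfn8 and Prss55 had called rises in WT and no call in KO. H2-Q5, a class I histocompatibility gene, did so too, and Hrasls had a log2 change of 0.66 in KO (adjusted p = 0.047) and 4.87 in WT, its KO call being lost in 5 of 6 leave-one-out fits (0.0718 to 0.168). Several of these (Hist1h2al, Rpl15-ps2, Tpm3-rs7, H2-Q5 and Slfn8) have close copies, and their counts are uncertain. Ighg2c, an immunoglobulin segment, was at 0 in all 3 WT libraries of 6 weeks, so its difference depends on the prior count. Pak3, a kinase, was among those that moved in KO, to 5.68, 8.04 and 3.27 CPM at 10 weeks, against 0.749, 0.502 and 1.05 CPM at 6 weeks (log2 2.88, SE 0.50, adjusted p = 0.00081), as did Tent5b, Pou3f1 and Gal3st2c above. In WT at 3 weeks the mean was 39.0 CPM for Kcnj14, 9.11 for Ptprn2, 5.64 for Hist1h2al, 5.18 for Rpl15-ps2 and 27.9 for Tpm3-rs7. It was 0.458 CPM for Eps8l1 and 0.343 for Hrasls. Whether WT at 10 weeks stood apart from younger WT by more than age was not tested, and every difference given here uses that group.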

How the data were processed

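Total RNA of 18 left ventricle libraries was sequenced. The values used are raw counts per gene as deposited by the authors. Per the submitters' processing notes, GRCm38 was the build and the tools included STAR 2.5.2b, Trimmomatic 0.36, Subread 1.5.2 and featureCounts; the annotation release, strand setting and handling of reads with several matches are not given in the sources used here, so copies and overlapping genes may share reads. Of 49315 gene identifiers 48970 matched a symbol.

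All 18 libraries, totals 14980968 to 23001047, were fitted in 6 groups with edgeR 4.0.16 (R 4.3.3; filterByExpr, minimum count 10, minimum total 15; TMM; robust quasi-likelihood F test; Benjamini-Hochberg adjusted p under 0.05). The contrasts were KO 10 minus 6 weeks, WT 10 minus 6 weeks, and their difference. The standard error (SE) was obtained from the F statistic, as the size of the log2 fold change over the root of F. The fit was tested on simulated data. Genes were named by rule: the 12 largest changes each way among called genes whose higher age averaged 2 CPM or more and whose ages did not overlap; up to 3 called members of each list each way; the 8 largest differences each way; predicted loci were only counted. 1 gene that the rule names is not reported here. The members and the 43 lists were chosen with earlier results of these data known, so lists are described by counts and medians. Alternatives were DESeq2 1.42.0, limma 3.58.1 voom, other scaling and filters, fits of fewer groups, a replicate block and leaving out each library. Promoter windows came from RefSeq.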

Additional observations from a re-analysis of the deposited data

Results flagged for a closer look

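The change from 6 to 10 weeks differed between KO and WT for 908 genes in the test of the difference itself (edgeR quasi-likelihood test, Benjamini-Hochberg adjusted p under 0.05). The genes of the report among them are given below with the KO log2 change minus the WT log2 change. No explanation was tested for any of them.

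Among genes called in KO whose change was above that in WT, the difference was 5.77 for Tent5b, 5.07 for Pou3f1, 4.62 for Pak3, 4.54 for Ccn2, 4.10 for Abra, 3.96 for Zbtb16, 3.56 for Agt and 3.51 for Mt2. In the same group it was 3.45 for Xirp1, 3.29 for Fkbp5, 2.95 for Cdkn1a, 2.87 for Timp4, 2.77 for Lcn2, 2.47 for Mmp3 and 2.44 for Synpo2l. Smaller differences were 2.11 for Slc2a1, 2.08 for Mt1, 1.99 for Cxcl14, 1.83 for Gdf15, 1.54 for Myh7, 1.52 for Myot, 1.18 for Per1 and 1.14 for Kcna5. The smallest were 1.10 for Srxn1, 1.09 for Slc8a1, 0.97 for Hmox1, 0.94 for Atf4, 0.90 for Pparg, 0.86 for Mypn and 0.72 for Bag3.

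Among genes called in KO whose change was below that in WT, the difference was -5.42 for Ighg2c, -4.20 for Hrasls, -3.43 for Gal3st2c, -2.97 for Foxo6, -2.44 for Lrrc17, -2.34 for Gal3st3, -1.84 for Col26a1, -1.76 for Gbp3 and -1.58 for Wee1. In the same group it was -1.49 for Tet1, -1.48 for Tmem82, -1.25 for Hlf, -1.22 for Rtp4, -1.19 for Kcnj5, -1.04 for Lum, -0.92 for Tgfbr3, -0.83 for Gja1 and -0.81 for Igf2.

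Among genes with no call in KO the difference was 11.22 for Ptprn2, 7.50 for Hist1h2al, 6.67 for Rpl15-ps2, -6.65 for Eps8l1 and 6.15 for Kcnj14. In the same group it was 5.78 for Tpm3-rs7, -4.17 for Unc5a, -3.34 for H2-Q5, -3.25 for Slfn8 and -3.22 for Prss55.

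Many of these calls depended on single libraries. Of the 58 differences given, 32 stayed called with each of the 12 KO and WT libraries of both ages left out in turn, and 36 without the 2 libraries rich in atrial transcripts. The call was lost in 11 of the 12 fits for Synpo2l, Srxn1 and Gal3st3, in 10 for Slc8a1, Mypn and Cxcl14, in 9 for Pparg, in 8 for Mmp3 and Igf2 and in 7 for Gdf15, Gja1, Kcnj5 and Tet1. It was lost in 6 fits for Foxo6 and Prss55, in 5 for Xirp1 and Ccn2, in 4 for Bag3 and Rtp4, in 3 for Col26a1 and Pou3f1, in 2 for Ighg2c and in 1 for Kcna5, Lcn2, Myot and Pak3. The adjusted p was 0.0504 to 0.259 in these fits.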

How the results depend on the processing

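The count of genes changed in KO was 1996; it was 2116 with DESeq2's size factors, 2508 with DESeq2, 1860 with limma voom and 2275 with no filter on low counts. The fit of only the 6 KO libraries gave 874 and that without the 2 libraries rich in atrial transcripts, added after seeing the data, gave 1135. Leaving out 1 library at a time gave 983 (without KO 6 weeks replicate 2) to 2634 (without KO 10 weeks replicate 3). With DESeq2's size factors 60.2% of the KO calls were higher at 10 weeks, against 51.5% with TMM. The count in WT was 1383, 2463 in the fit of its 6 libraries alone, and 555 (without WT 6 weeks replicate 1) to 1185 (without WT 6 weeks replicate 2) with 1 library left out. The count of differences between KO and WT was 908, 1550 with no filter, 1478 with DESeq2, and 460 (without KO 6 weeks replicate 2) to 1598 (without KO 10 weeks replicate 3) with 1 library left out. The cause of these shifts was not tested.

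With the replicate number as a block, 1911 genes were called in KO, 1329 in WT and 844 in the difference. The numbers did not pair the libraries: deviations of same-numbered KO libraries correlated at -0.076, 0.061 and -0.057. Of 96 genes named and called in KO, 69 stayed called with every library left out in turn, 58 in every other setting tried and 63 without the atrial-rich pair, and 0 changed direction. Of 58 differences between KO and WT named and called, 32 stayed called with every library left out in turn, 44 in every other setting tried and 36 without the pair, and 0 changed direction. Depth was similar in all KO libraries of both ages, and its effect on these counts was not tested.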
